A study of Drosophila melanogaster with 13 samples.

Results

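Nicotinic acetylcholine receptors are the channels that carry fast excitation in the insect brain. Acetylcholine released from cholinergic neurons opens a ring of subunits, which lets cations in and depolarises the receiving cell. Alpha subunits carry a neighbouring pair of cysteines at the acetylcholine site, beta subunits do not, and different mixtures of subunits give receptors with different properties and drug responses. The fruit fly genome holds 7 alpha genes (nAChRalpha1 to nAChRalpha7) and 3 beta genes (nAChRbeta1 to nAChRbeta3). These 10 genes, chosen by their symbols from the 17737 genes of the deposited count table, are described here in all 13 libraries.

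The libraries were made from GFP-labelled neurons of Drosophila melanogaster brains, collected by hand with a glass pipette. In 4 of them the RNA came from a pool of neurons labelled through TRH-Gal4, a driver named for tryptophan hydroxylase of serotonin synthesis, and these brains had been dissociated. The sNPFR-Gal4 libraries, from a driver that takes its name from a neuropeptide receptor, that of short neuropeptide F, were 1 pool and 8 single cells, and these brains were pinned. A pool held 15 to 60 cells. Libraries are named here by the number in their label: TRH pools 40, 45, 60 and 57, sNPFR pool 16, and cells 1 to 7 and 10. The labels give neither the age or sex of the flies nor further alleles, and they name no animals. The cells were therefore summed to 1 sample for testing, and together with the sNPFR pool they formed the 2 sNPFR units set against the 4 TRH pools. What p-values measure is thus the spread among these 6 samples, which may be technical. Brain handling differed with the driver, so the effects of driver and handling cannot be told apart. The pools had 12 PCR cycles and the single cells 17. For the summed cells, PCR cycles and single-cell input cannot be told apart from driver and handling either.

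Depth ran from 3.38 to 68.0 M reads per library (M, 1000000 reads), and cell 7 gave 52.7% of the 129.1 M reads of the summed cells. The RNA of the sNPFR libraries was spread over fewer genes: 5119 to 5686 genes reached 10 CPM (counts of a gene per 1000000 reads of its library) in the TRH pools, against 2798 in the sNPFR pool and 784 to 1896 in the cells. CPM are shares of a library's reads, and the part of this difference in the levels below was not tested. The 4 serotonergic markers (Trh, SerT, Vmat and Ddc) summed to 55955 to 92420 CPM in TRH pools, against 572 CPM in the sNPFR pool and 1.56 to 4790 CPM in single cells. Among 6 general neuronal markers all 6 reached 10 CPM in some TRH pool and in some cell, and 5 did in the sNPFR pool, where elav was at 1.37 CPM. Of the 8 cells, elav reached 10 CPM in 4, brp in 7, and nSyb, Syt1, Syx1A and para in 8. The 11 glia markers summed to 142 to 583 CPM across TRH pools, to 1589 CPM for the sNPFR pool and to 0 to 129.7 CPM across cells. Of these 11 markers 7 had no read in the sNPFR pool, repo among them, and its glial signal came from Eaat1, alrm and Gs2. The 6 hemocyte markers summed to 165 to 418 CPM over the TRH pools, most of it Pxn at 162 to 406 CPM, with NimC1 and He at 0. They had no read in the sNPFR pool and reached at most 0.313 CPM in single cells. The 6 photoreceptor markers summed to 262 to 447, 1023 and 0 to 3348 CPM, nearly all of it norpA, while trp was at 0 in every library and ninaE reached at most 0.104 CPM. The 7 muscle markers summed to 107 to 176, 264 and 0 to 434 CPM, mostly Tm1 in the pools, with Mhc at 0 throughout. The part of these other cell types in the results below was not tested. A level in a pool can change with the number of cells that express a gene or with the RNA in each, and these cannot be told apart.

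Coordinates are those of the BDGP6 annotation. On chromosome arm 3R, nAChRalpha1 (24393896 to 24457157, minus strand), nAChRalpha2 (24485428 to 24491147, plus strand) and nAChRbeta2 (24509228 to 24515106, minus strand) are neighbours, with gaps of 28270 and 18080 bases between them. nAChRbeta1 (4429349 to 4435993, plus strand) and nAChRalpha4 (23206669 to 23287448, plus strand) lie far apart on 3L. nAChRalpha3 (8276200 to 8367169, minus strand) and nAChRalpha7 (19327075 to 19348447, minus strand) are on the X chromosome. nAChRalpha6 (9793317 to 9886250, minus strand), nAChRalpha5 (14040170 to 14094401, plus strand) and nAChRbeta3 (545129 to 547096, plus strand) are on 2L. Their exons span from 1532 bases in nAChRbeta3 to 11027 bases in nAChRalpha1, so levels of different subunits are compared below as CPM per kilobase of exon. Reads that related subunits could share cannot be traced from gene counts, and such sharing was not tested.

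Summed over the family, nicotinic subunits took a smaller share of the RNA in every TRH pool than in any sNPFR library. The sum stood at 3524, 3241, 3259 and 3051 CPM in TRH pools 40, 45, 60 and 57, and at 6665 CPM in the sNPFR pool. The 8 cells ran from 6783 to 17656 CPM with a median of 8975 CPM, and the summed cells stood at 8528 CPM, or 9331 CPM without cell 7. The TRH pools differed little from one another, with a mean of 3269 ± 194 CPM (SD, n = 4), and no value of theirs overlapped the sNPFR values. The log2 ratio of the TRH mean to the mean of the 2 sNPFR units was -1.22. It was -1.77 after rescaling with TMM factors, edgeR's correction for libraries of unlike composition. No test is given for this sum, since its members were chosen with earlier results of these data in view.

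**Figure D1:**
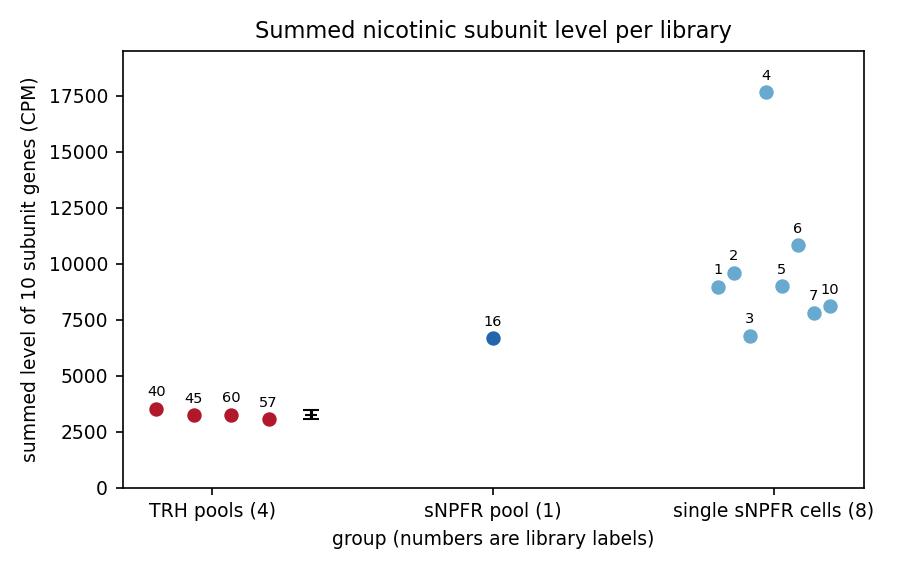
Summed level of the 10 nicotinic subunit genes in CPM (y axis) for each library, with TRH pools left, the sNPFR pool in the middle and single sNPFR cells right; numbers are library labels, and the black bar is the mean ± SD of the TRH pools. The 4 TRH pools sit between 3051 and 3524 CPM, below the sNPFR pool at 6665 CPM and all 8 cells.

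Gene by gene, 4 of the 9 subunit genes with enough reads to test were lower in TRH: nAChRbeta1, nAChRalpha7, nAChRalpha6 and nAChRalpha2. None was higher in TRH, and 5 did not pass. Across all 7426 genes tested, 3.03% were called lower in TRH, 10.6% higher in TRH and 13.6% either way, by edgeR's quasi-likelihood test at an adjusted p under 0.05. The median log2 fold change (TRH over sNPFR) was -1.65 over the 9 subunit genes, -0.82 over the 6 general neuronal markers and 0.67 over all genes tested. With other scalings that median over all genes ran from 0.41 to 1.28. Of the 7426 genes, 1700 had 0 reads in both sNPFR units. Over genes at 1 CPM or more in all 6 samples, a setting chosen after seeing the data, the median was -0.16 over all genes and -0.92 over the subunit genes. Of all genes 784 were called higher and 225 lower in TRH, against 809 and 394 with TMM by singleton pairing and 848 and 117 with library totals only. The number of subunit calls hung on single TRH pools: it was 2 without pool 40, 0 without pool 45, 1 without pool 60 and 0 without pool 57. Calls over all genes, either way, were 13.7, 0.42, 0.56 and 0.24% in the same order, beside 13.6% with all pools. Without pool 45, 60 or 57 the loss of calls was thus not particular to the subunits. Without pool 40 the share over all genes did not fall, while the subunit calls did. The sign of the 4 called genes was negative in all 23 alternative settings.

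nAChRbeta1 encodes a beta subunit that is found in many fly receptor types and bears on neonicotinoid insecticide action. It stood at 655, 638, 753 and 659 CPM in TRH pools 40, 45, 60 and 57, against 2088 CPM for the sNPFR pool and 1839.6 CPM for the cells summed. Among the cells it ranged from 116 to 5448 CPM with a median of 1778 CPM, and 7 of 8 cells lay above every TRH pool. Cell 3, at 116 CPM, lay below them all. The log2 fold change was -2.05 ± 0.24 (approximate standard error here and below; adjusted p = 0.0100, edgeR). The call was lost without TRH pool 45 (adjusted p = 0.0655) or pool 57 (adjusted p = 0.0700), and with limma-voom in place of edgeR (adjusted p = 0.193).

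nAChRalpha7 encodes the subunit needed for the giant fibre escape response, and with nAChRalpha5 and nAChRalpha6 it forms the group nearest to the vertebrate alpha7 receptor. Its level was 423, 329, 439 and 416 CPM in TRH pools 40, 45, 60 and 57, against 1309.8 CPM for the sNPFR pool and 1375 CPM for the cells summed. The cells ranged from 184 to 2384 CPM with a median of 1032 CPM, so that cells lay on both sides of the TRH pools, 5 above and 2 below. The log2 fold change was -2.28 ± 0.29 (adjusted p = 0.0137, edgeR). The call was lost without TRH pool 45, 60 or 57 (adjusted p = 0.0655, 0.0536 and 0.0825) and with limma-voom (adjusted p = 0.245).

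nAChRalpha6, the target of the insecticide spinosad, was the only subunit with all 8 cells above every TRH pool. It stood at 468, 899, 311 and 327 CPM in TRH pools 40, 45, 60 and 57, against 1559 CPM for the sNPFR pool and 2722 CPM for the cells summed. The cells ranged from 1961 to 11240.5 CPM with a median of 2968 CPM. TRH pool 45 was the highest of its group. The log2 fold change was -2.65 ± 0.57 (adjusted p = 0.0281, edgeR). Leaving out any TRH pool ended the call (adjusted p = 0.0607 without pool 40, 0.0655 without 45, 0.0748 without 60 and 0.0849 without 57). It was lost as well with limma-voom (adjusted p = 0.748), with the sNPFR pool taken alone (adjusted p = 0.0505), and over genes at 1 CPM or more in all 6 samples (adjusted p = 0.0596), a setting chosen after seeing the data.

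nAChRalpha2 encodes an alpha subunit of the 3R neighbourhood. The TRH pools held 236, 217, 185 and 198 CPM in pools 40, 45, 60 and 57, against 528 CPM for the sNPFR pool and 402 CPM for the cells summed. Single cells split widely: cells 1, 3, 4, 5 and 6 held 488 to 2842 CPM, above all TRH pools, while cell 7 held 41.9 CPM, cell 10 held 1.15 CPM and cell 2 had no read, which allows up to 0.383 CPM. The log2 fold change was -1.65 ± 0.39 (adjusted p = 0.0354, edgeR). The call was lost without any 1 TRH pool (adjusted p = 0.0607 without pool 40, 0.0871 without 45, 0.0860 without 60 and 0.107 without 57) or without cell 3 (adjusted p = 0.0521). Library totals only, RLE size factors, no filter on low counts and genes at 1 CPM or more in all 6 samples also ended it (adjusted p = 0.108, 0.0707, 0.0962 and 0.174).

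**Figure D2:**
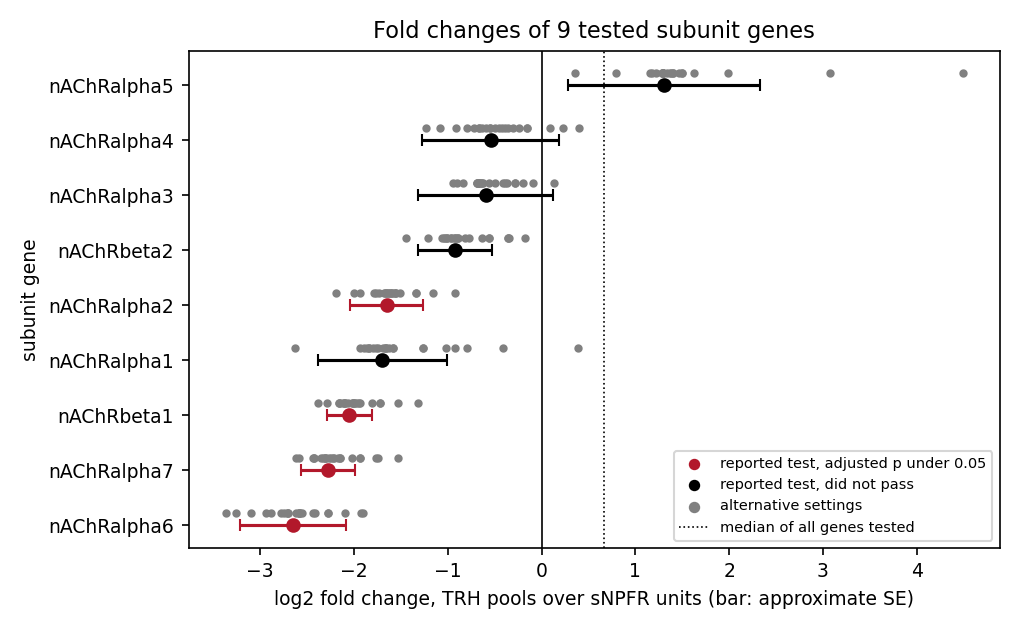
Log2 fold change of the 9 tested subunit genes, TRH pools over sNPFR units (x axis), with an approximate standard error; red points passed at an adjusted p under 0.05, black points did not, grey dots are the 23 alternative settings, and the dotted line is the median of all genes tested. nAChRalpha6, nAChRalpha7, nAChRbeta1 and nAChRalpha2 lie left of 0 in every setting, and nAChRalpha5 lies right of it.

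Of the 5 tested subunits that did not pass, nAChRbeta2, a beta subunit in which mutations give neonicotinoid resistance, was at almost the same level in both kinds of pool. It stood at 488, 353, 460.3 and 511 CPM in TRH pools 40, 45, 60 and 57, against 468 CPM for the sNPFR pool and 689 CPM for the cells summed (log2 fold change -0.92 ± 0.40, adjusted p = 0.154, edgeR). The cells split here too, with 5 above every TRH pool, at 594 to 1264 CPM, and cells 4, 10 and 3 at 20.1, 2.08 and 0.219 CPM. With the summed cells taken alone it passed (log2 fold change -1.45, adjusted p = 0.0196).

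nAChRalpha1 encodes another subunit tied to neonicotinoid action. It stood at 369, 278, 378 and 339.9 CPM in TRH pools 40, 45, 60 and 57, against 208 CPM for the sNPFR pool and 1176 CPM for the cells summed. Cell 7 supplied 76.0% of the cells' reads for this gene, and the sum without it was 596 CPM. The 2 sNPFR units thus lay on opposite sides of the TRH pools (log2 fold change -1.70 ± 0.68, adjusted p = 0.139, edgeR). Against the sNPFR pool alone the sign was reversed, at 0.39 (adjusted p = 0.353), and against the summed cells alone the gene was lower in TRH (-2.63, adjusted p = 0.00344).

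nAChRalpha5, a subunit related to nAChRalpha6 and nAChRalpha7, was found in every pool and in almost no single cell. Its level was 531, 361, 388 and 324 CPM in TRH pools 40, 45, 60 and 57, and 250.4 CPM in the sNPFR pool. Among the cells, cell 6 held 159 CPM, cells 10 and 7 held 1.30 and 0.0736 CPM, and cells 1 to 5 had no read, which allows up to 0.324 to 0.887 CPM. Every TRH pool lay above both sNPFR units (log2 fold change 1.30 ± 1.03, adjusted p = 0.408, edgeR). Against the summed cells alone, at 9.89 CPM, it was higher in TRH (4.49, adjusted p = 0.00415), and against the sNPFR pool alone it did not pass (0.36, adjusted p = 0.419).

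The remaining alpha genes varied between TRH pools as well as between cells. nAChRalpha4, known in flies as redeye for its part in sleep, stood at 134, 88.0, 277 and 121 CPM in TRH pools 40, 45, 60 and 57, against 92.8 CPM for the sNPFR pool and 199.7 CPM for the cells summed (log2 fold change -0.54 ± 0.73, adjusted p = 0.648, edgeR). In cells 1, 6 and 5 it held 1089, 793 and 459 CPM, and in cells 4, 10 and 3 it held 0.592, 0.260 and 0 CPM. nAChRalpha3 stood at 218, 77.9, 67.3 and 155 CPM in the same order of TRH pools, against 161 CPM for the sNPFR pool and 116 CPM for the cells summed (log2 fold change -0.60 ± 0.72, adjusted p = 0.599, edgeR). Cell 5 held 929 CPM of nAChRalpha3 and the other 7 cells 0.891 to 139 CPM. An antisense gene, CG1636, reached 1001 CPM in cell 6, where nAChRalpha3 was at 0.891 CPM, and had no read in cell 5. In cell 1 CG1636 was at 530 CPM and nAChRalpha3 at 139 CPM, and in the sNPFR pool they were at 156 and 161 CPM. CG1636 shares 251 exon bases with nAChRalpha3, which are 2.39% of the exon bases of nAChRalpha3. As the strand setting of the counting is not given in the sources used here, reads in that stretch are uncertain, as are those in the 247 exon bases that nAChRalpha4 shares with lncRNA:CR46475.

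nAChRbeta3, a divergent beta subunit, had no read in any library and could not be tested. All 1532 of its exon bases lie within exons of Ets21C, a transcription factor gene on the opposite strand. Counting without strand could set aside reads from such a gene as ambiguous, so the count of 0 is not read as absence. Ets21C itself had reads in TRH pool 57 only, at 5.85 CPM.

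**Figure D3:**
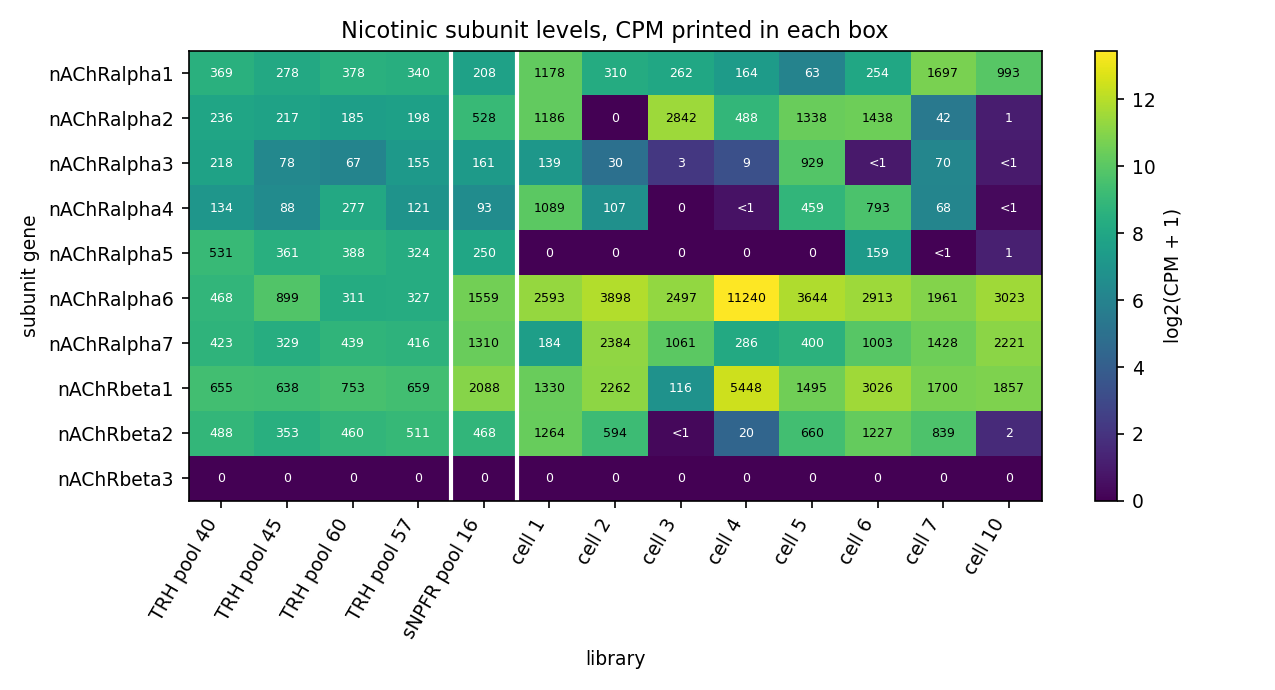
Level of each subunit gene (rows) in each library (columns), coloured by log2(CPM + 1), with CPM printed in the boxes; white lines part the TRH pools, the sNPFR pool and the single sNPFR cells. The TRH pools hold 9 genes at 67.3 to 899 CPM, while the cells range from 0 to 11240.5 CPM.

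Per length, nAChRbeta1 was the most abundant subunit in all 4 TRH pools. It averaged 227 ± 17.4 CPM per kilobase (SD, n = 4), above nAChRbeta2 at 113 ± 17.4, nAChRalpha2 at 87.4 ± 9.40, nAChRalpha7 at 69.5 ± 8.51, nAChRalpha6 at 64.4 ± 35.3, nAChRalpha5 at 42.8 ± 9.67, nAChRalpha1 at 30.9 ± 4.11, nAChRalpha4 at 25.6 ± 13.8 and nAChRalpha3 at 12.3 ± 6.76 CPM per kilobase. The ranges of neighbours in this order did not overlap between nAChRbeta1 and nAChRbeta2, between nAChRalpha2 and nAChRalpha7, or between nAChRalpha5 and nAChRalpha1. The ranges of the other detected neighbours overlapped. Within pools nAChRalpha4 lay above nAChRalpha3 in 4 of 4, and the other overlapping neighbours kept this order in 3 of 4. In the sNPFR pool nAChRbeta1 also led, at 702 CPM per kilobase, followed by nAChRalpha7, nAChRalpha2 and nAChRalpha6 at 227, 221 and 200.4, nAChRbeta2 at 116, and the other 4 detected subunits at 15.3 to 26.7 CPM per kilobase.

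As a share of the family per length, nAChRbeta1 made up 31.2 to 36.8% in the TRH pools and 45.5% in the sNPFR pool. nAChRbeta2 made up 13.5 to 19.7% in the TRH pools and 7.54% in the sNPFR pool, so the summed beta share was close, at 46.4 to 54.0% in the TRH pools and 53.0% in the sNPFR pool. nAChRalpha5 made up 5.36 to 8.02% in the TRH pools and 1.73% in the sNPFR pool. nAChRalpha2 lay at 11.2 to 14.0% in the TRH pools and 14.3% in the sNPFR pool. These shares have 1 sNPFR pool behind them and were not tested.

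Among TRH pools the make-up of the family varied least over pools 40, 60 and 57, and pool 45 stood somewhat apart. In pool 45 nAChRalpha6 made up 17.7% per length, against 5.80 to 8.51% in the other 3 pools, while nAChRalpha4 ran from 2.23 to 6.65% over the 4. The absolute differences between the per-length shares of a pair of libraries, summed and divided by 2, give the share of the family, in percentage points, that would have to change for one to match the other. It was 6.50 to 14.9 points over the 6 pairs of TRH pools, with pool 45 in the 3 widest pairs, and 18.9 to 23.5 points over the 4 pairs of a TRH pool with the sNPFR pool. Pool 45 was 18.9 points from the sNPFR pool and 17.1 points from cell 6. Over the 28 pairs of single cells it was 9.64 to 71.9 points, with a median of 40.3 points. A pool averages over its cells and a single cell does not, so the wider range of the cells is not set against that of the pools.

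**Figure D4:**
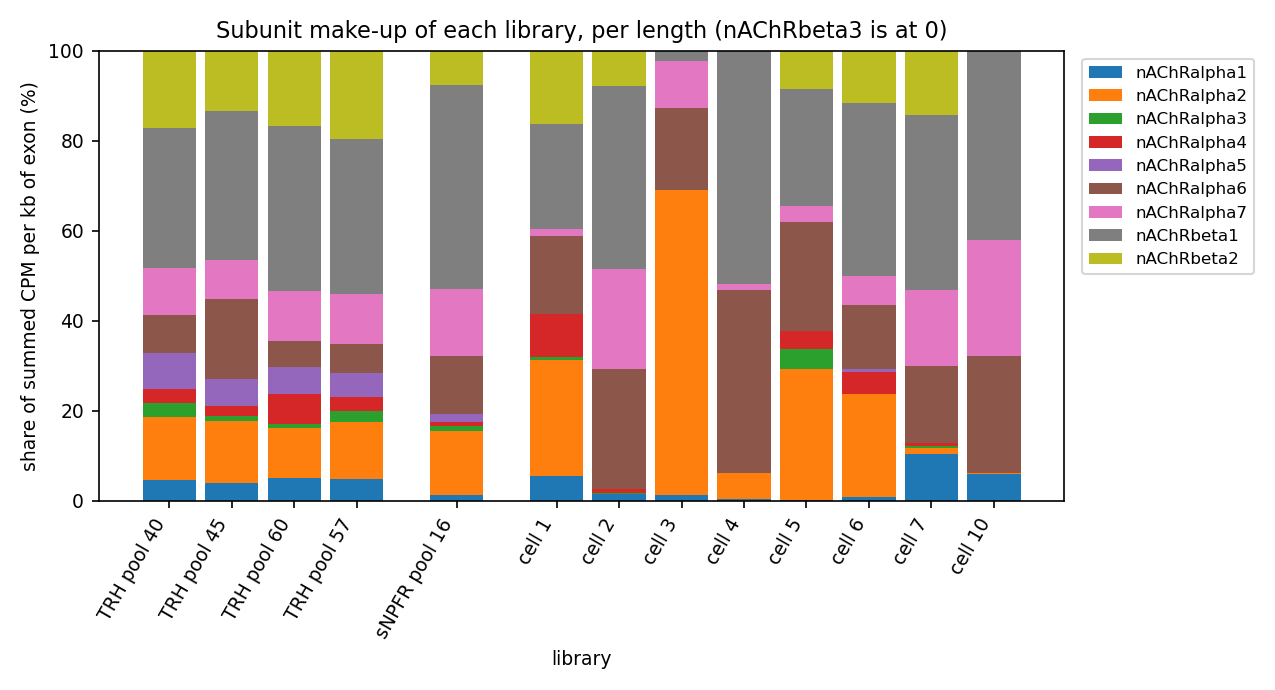
Share of each subunit in the summed CPM per kilobase of exon (y axis, percent) for each library (x axis), with the 4 TRH pools left, then the sNPFR pool and the 8 single sNPFR cells. In the TRH bars nAChRbeta1 (grey) is at 31.2 to 36.8% and nAChRalpha6 (brown) is widest in pool 45 at 17.7%, while in cell 3 nAChRalpha2 (orange) makes up 67.7%.

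Single sNPFR cells differed in how many and which subunits were detected. A transcript lost before amplification leaves no read, and the part of such loss in these differences was not tested. The general neuronal marker elav was itself under 10 CPM in cells 1, 4, 5 and 10, at 8.56, 4.44, 0 and 0.313 CPM. Counting a subunit as present at 10 CPM or more, the cells held 4 to 8 of the 10 subunits, with a median of 7.5, while all 4 TRH pools and the sNPFR pool held 9. Of the 80 pairs of a subunit and a cell, 54 were present, 15 had no read and 11 lay above 0 but under 10 CPM. nAChRalpha1, nAChRalpha6, nAChRalpha7 and nAChRbeta1 were present in 8 of 8 cells, nAChRalpha2 and nAChRbeta2 in 6, nAChRalpha4 in 5, nAChRalpha3 in 4, nAChRalpha5 in 1 and nAChRbeta3 in 0.

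Cells 1, 5 and 7 held the same 8 subunits. Cell 10 had the fewest subunits present, the 4 found in all cells. It was the second deepest cell at 19.2 M reads, but only 966 genes reached 10 CPM in it. Cells 3 and 4, with 5 and 6 subunits present, had 868 and 784 such genes. The other cells, with 7 or 8 subunits present, had 1501 to 1896. The part of gene detection in the number of subunits present was not tested. Cell 10 was made up of nAChRbeta1 (41.9% per length), nAChRalpha6 (26.1%), nAChRalpha7 (25.8%) and nAChRalpha1 (6.05%). Cell 2 was nearest to it, at 9.64 points, and likewise had nAChRbeta1, nAChRalpha6 and nAChRalpha7 in front. Cell 2 had no read of nAChRalpha2, and cell 10 held it at 1.15 CPM. In cells 1, 5 and 6 the mixture was broader, with nAChRalpha2 at 22.8 to 29.0%, nAChRalpha4 at 3.92 to 9.35% and nAChRbeta2 at 8.49 to 16.4%.

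Cell 3 stood apart from the other cells in its beta subunits. nAChRbeta1 held 116 CPM and nAChRbeta2 a single read, so that beta subunits made up 2.23% of the family per length there, against 34.5 to 53.1% in the other 7 cells and 46.4 to 54.0% in the TRH pools. nAChRalpha2 made up 67.7% per length in cell 3, and without length correction 41.9% of its 31028 family reads (exact Clopper-Pearson interval 41.4 to 42.5%, counting error only). Cell 4 was nearly all nAChRbeta1 (51.6%) and nAChRalpha6 (40.7%) per length, and its summed level of 17656 CPM was the highest of all libraries. It was also the shallowest library, at 3.38 M reads, with 784 genes at 10 CPM, the fewest. nAChRbeta1 was the leading subunit per length in 10 of 13 libraries and nAChRalpha2 in cells 1, 3 and 5. Measured by the longest transcript in place of all exons, nAChRbeta1 led in cells 1 and 5 too. Without length correction nAChRalpha6 led in 7 libraries, nAChRbeta1 in 5 and nAChRalpha2 in 1.

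Genes listed as receptor cofactors, among them those of proteins that help nicotinic receptors assemble and cluster, were also described. Of the 7 listed cofactor genes, all tested, 1 was higher in TRH (10.6% of all genes were) and 1 was lower in TRH (3.03% of all genes were). The other 5 did not pass (13.6% of all genes passed either way). The median log2 fold change was -1.18 beside 0.67 over all genes. hig, which encodes a secreted protein of the cholinergic synaptic cleft, stood at 823 ± 272 CPM across TRH pools (SD, n = 4), 2844 CPM for the sNPFR pool and 2602 CPM for the cells summed (-2.26 ± 0.30, adjusted p = 0.0158, edgeR). Hasp, the scaffold that anchors hig, stood at 1493 ± 308, 3342 and 1652 CPM in the same samples and did not pass (-1.18 ± 0.32, adjusted p = 0.0573). CG9773, the fly Unc50 gene named for a receptor trafficking factor of worms, stood at 39.3 ± 21.4 CPM across TRH pools and had 0 reads in the sNPFR pool and 1 read among all cells (adjusted p = 0.0266). Adar, the enzyme that edits transcripts of several subunits, stood at 125 ± 78.8, 278 and 293 CPM (adjusted p = 0.238).

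Among 7 genes of acetylcholine synthesis, breakdown and muscarinic signalling, 6 were tested, 1 was lower in TRH, beside 3.03% of all genes, and 5 did not pass (13.6% of all genes passed either way), with a median log2 fold change of -3.71. Ace, the acetylcholinesterase that ends the signal, stood at 601 ± 112 CPM across TRH pools, 1177 CPM for the sNPFR pool and 3938 CPM for the cells summed (-2.74 ± 0.52, adjusted p = 0.0235, edgeR). mAChR-B, a muscarinic receptor, stood at 44.5 ± 36.8, 0.0178 and 0 CPM and narrowly missed the threshold (adjusted p = 0.0501). VAChT, which packages acetylcholine into vesicles, averaged 34.4 ± 33.9 CPM across TRH pools, against 221 and 1489.8 CPM (adjusted p = 0.0775). ChAT, which makes acetylcholine, averaged 69.7 ± 66.7 CPM across TRH pools, against 1962 and 1594 CPM (adjusted p = 0.106), and was present in 8 of 8 cells at 186 to 2843 CPM. VAChT was present in 7 of the 8 cells, and CG7708, listed as the cholinergic marker ChT, in 4.

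Other channels of the same pentameric superfamily were also described. Of 13 such genes, 10 were tested, 3 were lower in TRH (3.03% of all genes), none was higher in TRH (10.6% of all genes) and 7 did not pass. Rdl, a GABA-gated chloride channel, stood at 1315 ± 189 CPM across TRH pools, 2386 CPM for the sNPFR pool and 3456 CPM for the cells summed (-1.72 ± 0.31, adjusted p = 0.0222, edgeR). GluClalpha, a glutamate-gated chloride channel, averaged 574 ± 131 CPM across TRH pools, against 1956 CPM for the sNPFR pool and 1058 CPM for the cells summed (-1.86 ± 0.31, adjusted p = 0.0215). pHCl-1, a pH-sensitive chloride channel, averaged 172 ± 85.1 CPM across TRH pools, against 793 and 1339 CPM (-3.23 ± 0.52, adjusted p = 0.0212). CG6927 averaged 8.95 ± 16.5 CPM across TRH pools, most of it from pool 40 at 33.7 CPM, and had no read in either sNPFR unit (adjusted p = 0.130). Of the 10 tested genes 5 had 0 reads in both sNPFR units, and the list's median log2 fold change was 4.38, or 2.60 with those genes set to the level of 3 reads in the sNPFR pool.

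For the 4 subunits present in all 13 libraries, the genes with the most similar profile were sought by Pearson's r of log2(CPM + 1) among 5045 genes with a mean of at least 10 CPM. For nAChRbeta1 these were slo, a calcium-gated potassium channel gene (r = 0.93), pHCl-1 (0.89) and spen (0.89). For nAChRalpha6 they were Syp (0.91), CG43902 (0.88) and acj6 (0.85). For nAChRalpha1 they were CG43850, CG13293 and CG4239 (0.81, 0.80 and 0.79), and for nAChRalpha7 they were Teh2, CG34445 and mei-P26 (0.69, 0.68 and 0.67). All of these rest on 13 libraries that share driver and handling within each group, and they are given as a description.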

How the data were processed

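RNA-seq was deposited for 13 libraries, of which 5 were pools amplified with 12 PCR cycles and 8 single cells with 17, per the labels' protocols (SMART-Seq v4 and Nextera XT kits). These kits do not mark strand. The authors' deposited values used here are whole-number read counts per gene. STAR, edgeR and genome build BDGP6 were used, per the submitters' processing notes. Which counter, annotation and strand option made the table is not given in the sources used here. A second, normalized table from the authors was not used, and 1 column of the count table that matches no sample label was left out.

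CPM are counts over library totals, and CPM per kilobase divides by the union of annotated exons. The 4 TRH pools were tested against both sNPFR samples in edgeR 4.0.16 under R 4.3.3 (quasi-likelihood F test, TMM scaling, filterByExpr, 4 residual degrees of freedom) on all genes, with Benjamini-Hochberg adjustment over 7426 genes and a threshold of 0.05. The standard error printed is the absolute log2 fold change over the square root of F. Alternatives were DESeq2 1.42.0, limma-voom (limma 3.58.1), other scalings, other filters, either sNPFR sample by itself, equal weights for cells, and leaving out 1 TRH pool or 1 cell. On simulated counts for these 7426 genes with 64-fold changes in 100 genes, 28 were recovered, and of 100 with 8-fold changes 2 were, with 0 false calls, so failing the test does not show a lack of change. Descriptive values and figures used Python 3.11.15, numpy 2.4.6, pandas 2.3.3, scipy 1.17.1 and matplotlib 3.10.9.

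A count of 0 allows up to 3 reads, or 0.0441 to 0.887 CPM across libraries. Intervals are at 95%. Floors and intervals cover counting error only, as PCR copies cannot be told from molecules. They do not cover transcripts lost before amplification. Genes named are all 10 members, up to 4 genes of each related list with the smallest p, the 3 genes most similar to each member present in every library, and genes overlapping a member. Marker genes are named outside that rule, after their values were seen. The members and lists were chosen with earlier results of these data known.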

Additional observations from a re-analysis of the deposited data

Results flagged for a closer look

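Among 20 groups of values examined (the 9 detected subunits and the family sum, in the 4 TRH pools and in the 8 cells), 4 held a value far from the rest of its group, all in single cells. Among normally distributed values the rule used would mark about 1 group in 20 by chance. CPM of single cells are not so distributed, as with nAChRalpha5, which had no read in 5 of 8 cells. The family sum of cell 4 also contains its nAChRalpha6 value. The 4 marks are therefore not set against that rate. In cell 5, nAChRalpha3 stood at 929 CPM, with the next cell at 139 CPM. nAChRalpha5 in cell 6 stood at 159 CPM, with the next cell at 1.30 CPM. Cell 4 held nAChRalpha6 at 11240.5 CPM, with the next cell at 3898 CPM, and a family sum of 17656 CPM, with the next at 10814 CPM. Cell 4 was the shallowest library, and the part of depth in these values was not tested.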

How the results depend on the processing

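No paired analysis was possible because the groups share no replicate numbers. The count of 4 called subunits was 3 or 4 in 16 of 23 alternative settings. It was 1 with limma-voom, 7 with the summed cells alone (6 lower and 1 higher in TRH) and 2 over genes at 1 CPM in all 6 samples, a setting chosen after seeing the data. Leaving out single libraries gave 0 to 4 calls, and 0 to 2 where a TRH pool was left out. Without TRH pool 45 or pool 57, where edgeR called 0 subunits, 4 had an unadjusted p under 0.05, and 30 and 16 genes were called over the whole table. Without pool 60, 39 genes were called over the whole table. The log2 ratio of the family sum was -1.77 after TMM rescaling and -1.29 to -1.19 with single libraries left out. The sign of a subunit that did not pass was reversed for nAChRalpha1 (0.39, sNPFR pool alone), nAChRalpha3 (0.13, genes at 1 CPM in all 6 samples) and nAChRalpha4 (0.085 with library totals only, 0.40 with the sNPFR pool alone and 0.23 over genes at 1 CPM in all 6 samples). The median number of subunits present per cell was 7.5 at 1 CPM and 6.5 at 50 CPM. The leading subunit per length was the same in 11 of 13 libraries with the longest transcript, and in 6 without length correction. The cause of these shifts was not tested.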
